A study of Zea mays with 18 samples.

Results

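Transcript levels of 6 maize genes that act in the change from juvenile to adult growth and in the making of side organs were followed over 3 seedling organs and a brassinosteroid treatment. The genes were chosen by identifier: 5 of them encode SBP transcription factors, namely unbranched2 (Zm00001d031451), unbranched3 (Zm00001d052890), tasselsheath4 (Zm00001d020941), liguleless1 (Zm00001d002005) and tga1 (Zm00001d049822), and the sixth, glossy15 (Zm00001d046621), encodes a factor of the AP2 type. They are 6 of the 45260 features and of the 43484 gene models in the deposited table. The table gives identifiers alone, so the names are those by which the genes were chosen.

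SBP proteins carry a plant-specific zinc-binding domain that binds DNA. In maize the microRNA miR156 acts on the transcripts of tasselsheath4, tga1, unbranched2 and unbranched3; it is abundant in young plants, and as it declines the SBP factors rise and adult traits follow. glossy15 works on the other side of this change: it keeps the epidermis of the first leaves juvenile, with its own wax and cell wall features, until a second microRNA, miR172, acts on its transcript.

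Polyadenylated RNA was sequenced from seedlings of the inbred line B73, a standard laboratory maize. Epibrassinolide (EBL), a brassinosteroid that promotes cell elongation in plants, was given at 1 nM in the nutrient solution for 48 h to seedlings that had germinated for 3 days in the dark. The groups were EBL-treated and control primary roots, EBL-treated and control shoots, a sample of stem, apex and coleoptile (the sheath around the emerging shoot), and EBL-treated and control first leaves. Each of the 6 groups had 3 biological replicates, 18 samples in all, but the authors' table holds 1 RPKM value (reads scaled to feature length and library size) per group. No replicate error can therefore be given, the depth behind a value is unknown, and differences are described by size: a gene was counted as higher or lower at a change of at least 2-fold after 1 RPKM was added to each value, a scale that understates changes of low genes. Comparisons took genes that reached 1 RPKM in at least 1 group and were above 0 in both groups compared. Summed RPKM was lowest in control shoots, at 934116, and highest in EBL leaves, at 1599725, so a value in leaves is a share of a larger total. The organ labels were not checked against marker genes, because gene models could not be paired with names.

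All 6 genes were low to moderate in level. glossy15 reached the highest value, 17.1 RPKM in EBL shoots, and tga1 stayed under the minimum of 1 RPKM in each group, with 0.384 RPKM in control shoots as its highest value. The other 5 genes passed that minimum. Among the 26152 gene models with at least 1 RPKM in some group, the median level was 9.88 RPKM in EBL shoots and 9.81 RPKM in control shoots. glossy15 lay above that median in shoots and the 5 SBP genes below it. In bulk organs such as these, fewer cells that make a transcript and less transcript per cell cannot be told apart.

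**Figure D1:**
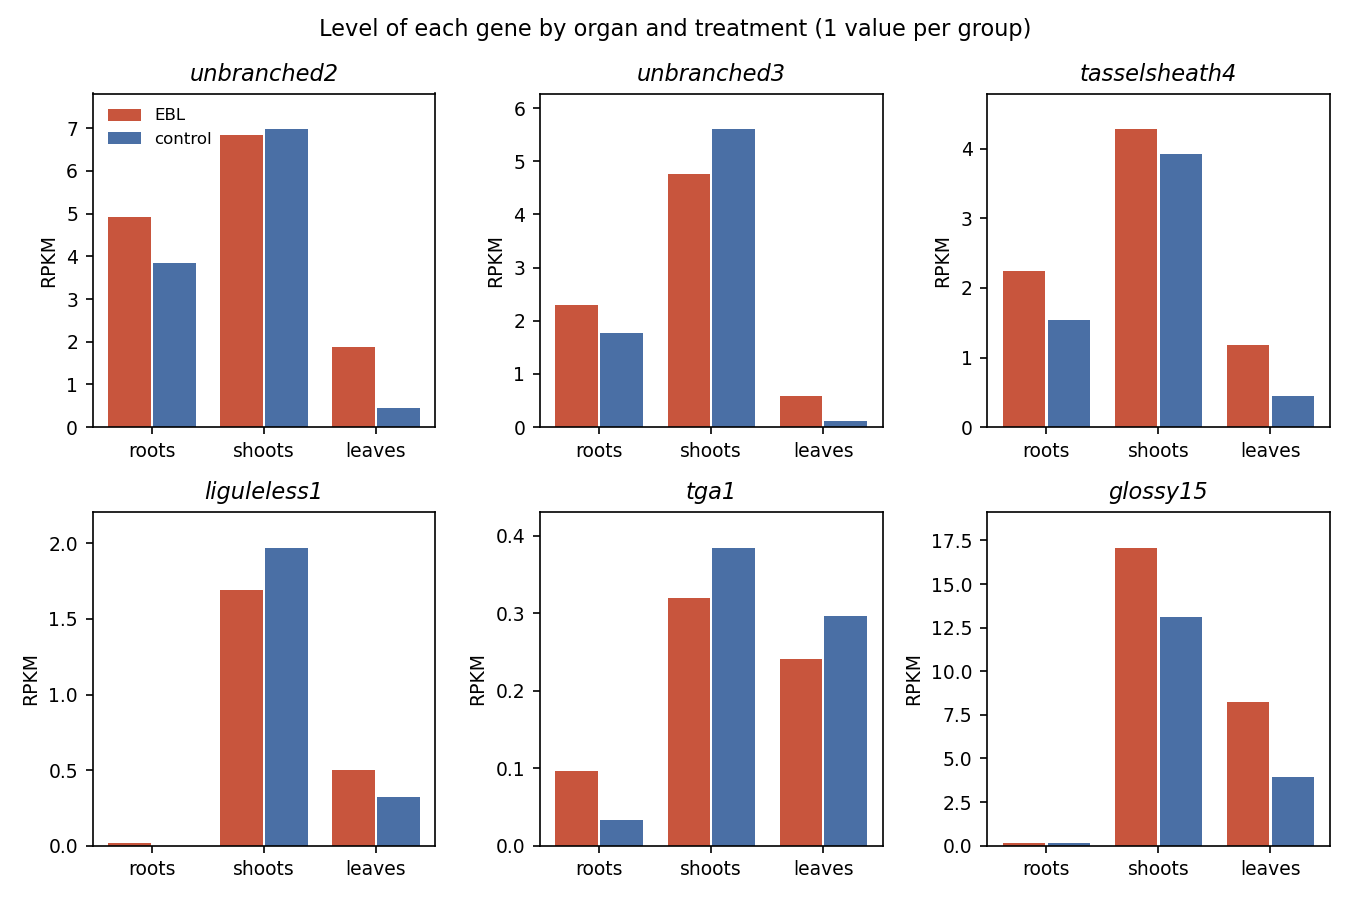
RPKM (vertical axis, from 0, a separate scale for each gene) of the 6 genes in roots, shoots and leaves, with EBL bars left of control bars and 1 value per bar. Each gene has its highest bars in shoots; glossy15 reaches 17.1 RPKM there and tga1 does not exceed 0.384 RPKM.

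unbranched2 and unbranched3 are closely related factors that limit the number of branches in the tassel and of kernel rows in the ear. unbranched2 stood at 6.83 RPKM in EBL shoots and 6.97 RPKM in control shoots. It stood at 1.88 RPKM in EBL leaves and 0.456 RPKM in control leaves, and at 4.92 RPKM in EBL roots and 3.85 RPKM in control roots. Shoots were thus highest, roots next and leaves lowest, with no overlap between organs whichever treatment was taken.

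unbranched3 had the same order at lower values. Its level was 4.76 RPKM in EBL shoots and 5.60 RPKM in control shoots, 0.578 RPKM in EBL leaves and 0.113 RPKM in control leaves, and 2.29 RPKM in EBL roots and 1.76 RPKM in control roots. How reads were divided between unbranched2 and unbranched3 where their sequences are alike is not stated in any source at hand, so the split between them carries that uncertainty.

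tasselsheath4, which suppresses the leaves (bracts) beneath branches of the inflorescence, followed them. It stood at 4.28 RPKM in EBL shoots and 3.92 RPKM in control shoots, 1.18 RPKM in EBL leaves and 0.443 RPKM in control leaves, and 2.24 RPKM in EBL roots and 1.53 RPKM in control roots. Its roots also lay above its leaves without overlap, except under median-ratio scaling and quantile normalization, where EBL leaves stood above control roots.

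liguleless1 is needed for the ligule and auricle, the hinge between the blade and the sheath of a leaf. It stood at 1.69 RPKM in EBL shoots and 1.97 RPKM in control shoots, and at 0.503 RPKM in EBL leaves and 0.324 RPKM in control leaves. In roots it was at 0.0186 RPKM with EBL and was listed at 0 in the control, so roots were the lowest organ. Shoots held 81.2% of its RPKM summed over the 6 groups, the largest shoot share among the 6 genes.

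tga1 shapes the hard glume that encases the kernel in teosinte, the wild ancestor of maize. Its values were 0.319 RPKM in EBL shoots and 0.384 RPKM in control shoots, 0.241 RPKM in EBL leaves and 0.296 RPKM in control leaves, and 0.0964 RPKM in EBL roots and 0.0327 RPKM in control roots. Shoots and leaves lay close together, and under median-ratio scaling or quantile normalization its highest value was in control leaves. At these levels no order between shoots and leaves can be read.

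glossy15 stood at 17.1 RPKM in EBL shoots and 13.1 RPKM in control shoots. It stood at 8.26 RPKM in EBL leaves and 3.95 RPKM in control leaves, and at 0.153 RPKM in EBL roots and 0.132 RPKM in control roots. Shoots, leaves and roots did not overlap, except that EBL leaves passed control shoots under median-ratio scaling. In rank it lay at percentile 64.6 of the 26152 gene models in EBL shoots and 57.8 in control shoots, and at percentile 3.32 in EBL roots and 2.94 in control roots.

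For 6 of the 6 genes both shoot values lay above the 4 values of the other organs, as the authors scaled the columns. This held for 19.9% of the 26152 gene models. They do not include tga1, so that share stands beside the other 5 genes only. Under median-ratio scaling it held for 4 of the 6 genes, not for tga1 and glossy15, and under quantile normalization for 5, not for tga1. The genes divided by the organ that came next. unbranched2, unbranched3 and tasselsheath4 ran shoots, roots, leaves without overlap, an order found in 13.7% of the gene models. liguleless1 and glossy15 ran shoots, leaves, roots, an order found in 3.33%. The values of tga1 were listed in that order too, but at its level no order between shoots and leaves can be read. The exceptions under other scalings are those given above for tasselsheath4, tga1 and glossy15.

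**Figure D2:**
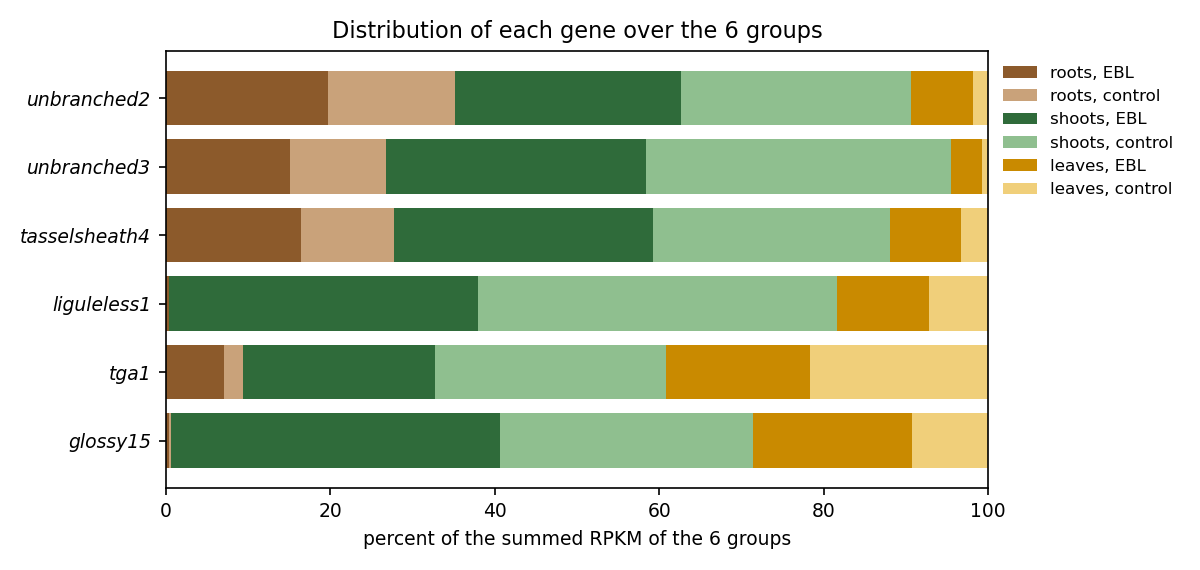
Percent of each gene's RPKM summed over the 6 groups (horizontal axis) that falls in each organ and treatment, as stacked bars with 1 row per gene. Roots take 35.2% for unbranched2, 26.8% for unbranched3 and 27.8% for tasselsheath4, but 0.412% for liguleless1, 9.43% for tga1 and 0.668% for glossy15.

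In the comparison of control shoots with control leaves, 5 of the 5 genes compared were at least 2-fold higher in shoots, and 0 were lower. Of all gene models compared, 30.3% were higher and 14.7% lower. That split depends on the scaling: 7738 gene models were higher and 3746 lower as deposited, but 4331 were higher and 5960 lower under median-ratio scaling, where 3 of the 5 genes passed 2-fold. unbranched3 had the largest difference of the 5, with 5.60 RPKM in control shoots against 0.113 RPKM in control leaves (log2 change 2.57). With EBL the same comparison gave 3 of 5 past 2-fold, all higher in shoots, where 33.0% of the gene models were higher and 16.8% lower; glossy15, at 17.1 RPKM in EBL shoots against 8.26 RPKM in EBL leaves (log2 change 0.97), and liguleless1 (0.84) fell short.

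Between control shoots and control roots, 2 of the 4 genes compared were at least 2-fold higher in shoots, where 11.9% of the gene models were; none was lower, where 14.5% were. These were glossy15 (log2 change 3.64) and unbranched3 (1.26). tasselsheath4 (0.96) and unbranched2 (0.72) stayed below 2-fold on this scale. Without the added 1 RPKM the ratio of tasselsheath4 was 2.56. The count past 2-fold was 3 with 0.1 RPKM added, under quantile normalization, and once each column was divided by its gene model total. liguleless1 had no fold there, since its control root value is 0; with EBL it stood at 1.69 RPKM in shoots against 0.0186 RPKM in roots (log2 change 1.40). In the EBL comparison liguleless1 and glossy15 (3.97) were the 2 of 5 past 2-fold, where 12.8% of the gene models were higher and 14.9% lower, and unbranched3 was at 0.81.

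The contrast of leaves with roots went both ways. In control seedlings glossy15 was at least 2-fold higher in leaves, with 3.95 RPKM against 0.132 RPKM in roots (log2 change 2.13), where 15.8% of the gene models were higher. unbranched2 was lower in leaves, with 0.456 RPKM against 3.85 RPKM in roots (log2 change -1.74), as was unbranched3 (-1.31), where 37.1% of the gene models were lower. That balance turned with the scaling: 4030 gene models were higher and 9456 lower in control leaves as deposited, but 5906 were higher and 4906 lower under median-ratio scaling. tasselsheath4 was at -0.81. With EBL the same 3 genes passed 2-fold in the same directions, glossy15 at 3.00, unbranched2 at -1.04 and unbranched3 at -1.06, and 17.7% of the gene models were higher and 41.1% lower.

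Ratios between genes within a group do not change when all values of that group are multiplied by one factor; quantile normalization, which is not of that kind, can change them. unbranched2 exceeded unbranched3 by a factor of 1.44 in EBL shoots and 1.25 in control shoots, 3.25 in EBL leaves and 4.02 in control leaves, and 2.15 in EBL roots and 2.18 in control roots. The excess of unbranched2 was thus lowest in shoots and highest in leaves, with no overlap between organs. In leaves unbranched3 stood at 0.578 RPKM with EBL and 0.113 RPKM in the control, so leaf ratios with it rest on low values. The unknown division of reads between unbranched2 and unbranched3 applies here as well. glossy15 exceeded unbranched2 by a factor of 2.50 in EBL shoots and 1.88 in control shoots, and of 4.39 in EBL leaves and 8.68 in control leaves. In roots the relation turned round: unbranched2 exceeded glossy15 by a factor of 32.0 with EBL and 29.2 in the control. unbranched3 and tasselsheath4 were near each other in roots, at a ratio of 1.02 with EBL and 1.15 in the control, whereas in leaves unbranched3 was the lower one, at 0.490 times tasselsheath4 with EBL and 0.256 times in the control.

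The effect of EBL was then compared within each organ, the question of the study. None of the genes reached 2-fold in roots, shoots or leaves on the scale with 1 RPKM added, and the values that came closest were in leaves. No test within an organ could be made with 1 value per group.

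**Figure D3:**
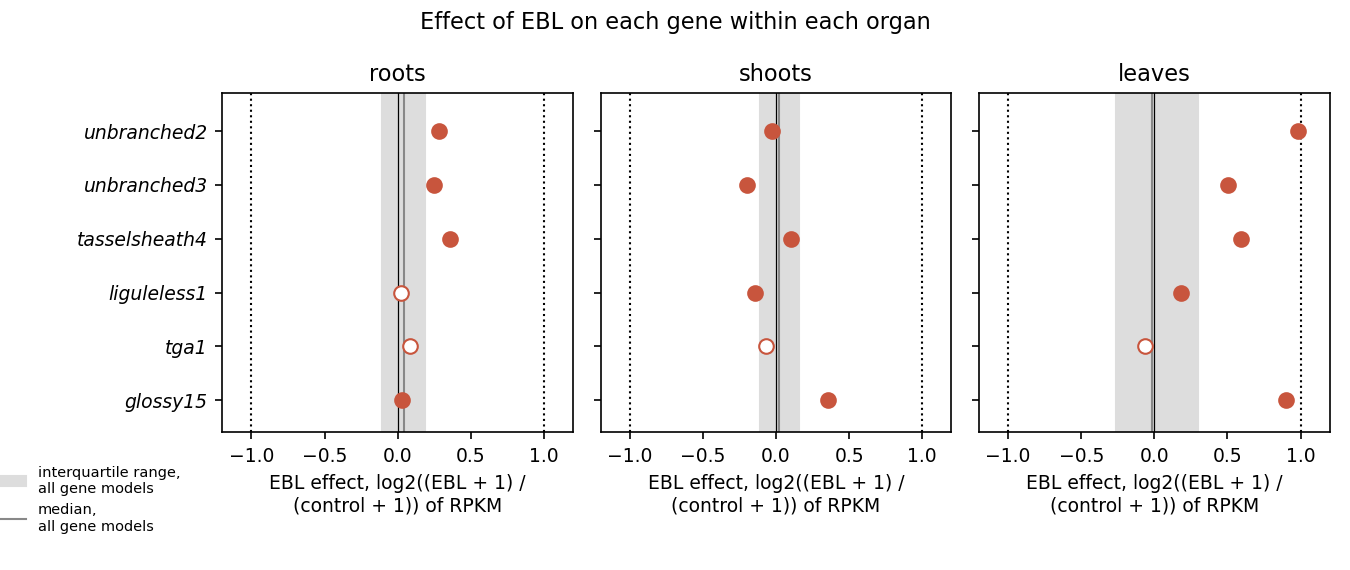
EBL effect (horizontal axis, log2 of EBL + 1 over control + 1, in RPKM) for the 6 genes in roots, shoots and leaves; filled points are genes that met the minimum and were above 0 in both groups, open points are genes that did not. The grey band is the interquartile range of all gene models, the grey line their median and the dotted lines 2-fold; in leaves unbranched2 lies at 0.98 and glossy15 at 0.90, beyond the band, and in shoots glossy15 at 0.36.

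In leaves each of the 5 genes compared stood higher with EBL at any size, and tga1, which was not compared, stood lower. At any size 48.2% of the gene models stood higher in EBL leaves, and 4.83% passed 2-fold upward and 0.947% lower by that much (1229 and 241 gene models; 554 and 747 once each column was divided by its gene model total). unbranched2 had 1.88 RPKM in EBL leaves against 0.456 RPKM in control leaves, a ratio of 4.13 and a log2 change of 0.98 with 1 RPKM added, at percentile 95.0 of the gene models compared. glossy15 had 8.26 RPKM in EBL leaves against 3.95 RPKM in control leaves, a ratio of 2.09 and a log2 change of 0.90, at percentile 93.7. Both lay just under 2-fold on the scale used.

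tasselsheath4 followed, with 1.18 RPKM in EBL leaves against 0.443 RPKM in control leaves (ratio 2.66, log2 change 0.60). unbranched3 had 0.578 RPKM in EBL leaves against 0.113 RPKM in control leaves, the largest ratio of the 6 genes in leaves at 5.10, but a log2 change of 0.50. liguleless1 was at 0.18 and tga1 at -0.06. The 5 genes compared had a median effect of 0.60 in leaves, beside -0.01 for all gene models.

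Because 5 of the 6 genes were below 1 RPKM in control leaves and unbranched2 and tasselsheath4 crossed that level with EBL, the amount added to each value decides how large the change appears. With 0.1 RPKM added, unbranched2 (log2 change 1.83), unbranched3 (1.67), tasselsheath4 (1.24) and glossy15 (1.04) passed 2-fold. liguleless1 (0.51), also under 1 RPKM in control leaves, did not. By that rule 8.02% of all gene models were higher in EBL leaves, and 16.1% of the 3947 that stood under 1 RPKM in control leaves. The part of the low level in these changes was not tested. glossy15, with several RPKM in both groups, moved least between the scales among the 4 genes past 2-fold with 0.1 RPKM added.

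**Figure D4:**
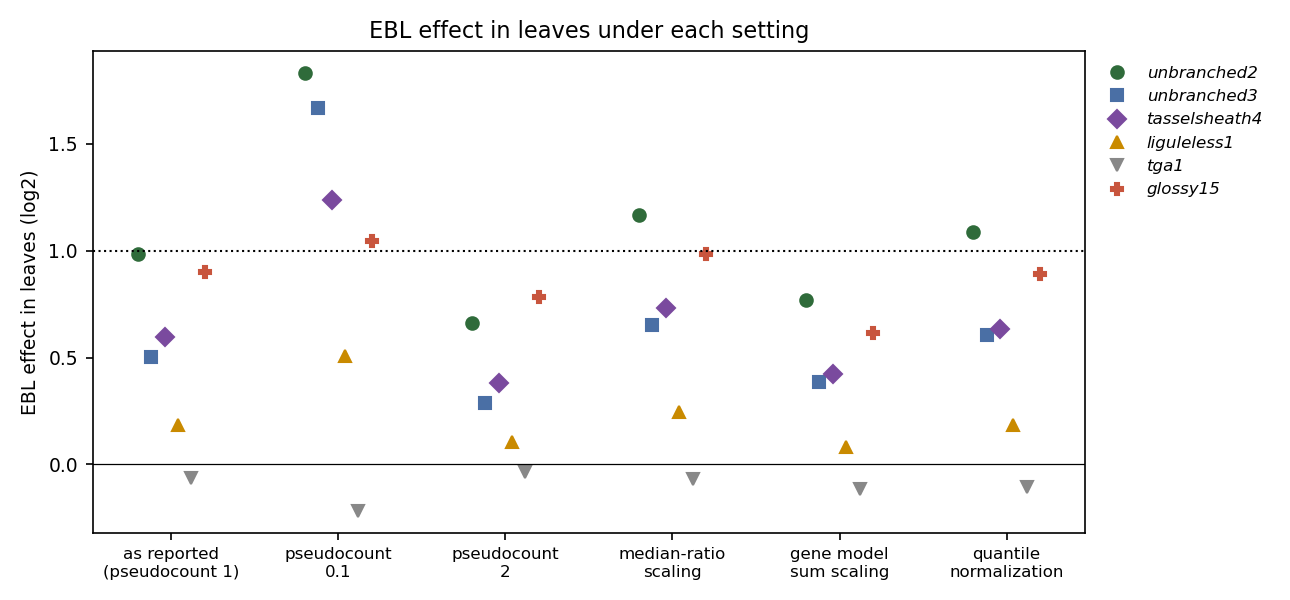
EBL effect in leaves (vertical axis, log2) of the 6 genes as reported and under 5 other settings of the added amount or of the scaling (horizontal axis). The dotted line marks 2-fold; unbranched2 runs between 0.66 and 1.83 and glossy15 between 0.62 and 1.04, and tga1 lies below 0 in each setting.

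Most transcripts typical of shoots also stood higher in EBL leaves. Of 80 gene models at least 8-fold higher in shoots than in both other organs and at 10 RPKM or more there, a list drawn from these same data without the 6 genes, 54 were higher in EBL leaves and 19 lower. Their median was 1.35 RPKM in EBL leaves and 0.759 RPKM in control leaves, their summed level was 341 RPKM in EBL leaves and 196 RPKM in control leaves, and 10 were listed at 0 in EBL leaves and 8 in control leaves. The highest share of the shoot level that any of the 80 reached was 45.0% in EBL leaves and 9.91% in control leaves. At any size 48.2% of the gene models compared stood higher in EBL leaves. The 80 were picked for leaf values far below those of shoots, and no share was taken for gene models of like leaf level. The part of the shift of the 80 in the leaf values of the 6 genes was not tested. As a share of the shoot level in the same treatment, unbranched2 stood at 27.5% in EBL leaves and 6.53% in control leaves, and unbranched3 at 12.1% in EBL leaves and 2.02% in control leaves. tasselsheath4 stood at 27.6% in EBL leaves and 11.3% in control leaves, and glossy15 at 48.3% in EBL leaves and 30.2% in control leaves. liguleless1 stood at 29.7% in EBL leaves and 16.4% in control leaves, and tga1 at 75.4% in EBL leaves and 77.0% in control leaves.

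In shoots the effects of EBL on the 6 genes lay between -0.20 and 0.36 (log2). glossy15 had the largest effect, with 17.1 RPKM in EBL shoots against 13.1 RPKM in control shoots (ratio 1.30, log2 change 0.36), at percentile 93.5 of the gene models compared. unbranched3 stood lower with EBL, at 4.76 RPKM against 5.60 RPKM in control shoots (log2 change -0.20). liguleless1 (-0.14), tga1 (-0.07) and unbranched2 (-0.03) also lay below 0, and tasselsheath4 at 0.10. Of the 5 genes compared 2 were thus higher at any size, where 53.7% of the gene models were. None of the 5 compared was at least 2-fold higher, where 0.129% of the gene models were, and none 2-fold lower, where 0.434% were.

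In roots each of the 4 genes compared stood higher with EBL, where 58.8% of the gene models did. None of the 4 passed 2-fold, where 0.602% of the gene models passed it upward and 1.61% downward. The genes not compared, liguleless1 and tga1, also stood higher with EBL. They lay near 0, at 0.0186 RPKM against 0 and at 0.0964 RPKM against 0.0327 RPKM in the control. tasselsheath4 had 2.24 RPKM in EBL roots against 1.53 RPKM in control roots (ratio 1.46, log2 change 0.36), at percentile 91.2. unbranched2 had 4.92 RPKM in EBL roots against 3.85 RPKM in control roots (ratio 1.28, log2 change 0.29), and unbranched3 had 2.29 RPKM against 1.76 RPKM in control roots (ratio 1.30, log2 change 0.25). The summed level of these 3 genes was 9.45 RPKM in EBL roots and 7.15 RPKM in control roots with nearly the same composition: unbranched2 made up 52.0% of it with EBL and 53.9% in the control.

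glossy15, liguleless1 and tga1 were near 0 in roots in both treatments, at 0.153 RPKM or less. At any size 58.8% of the gene models compared stood higher in EBL roots. The 80 shoot-typical gene models had a median of 0.654 RPKM in EBL roots and 0.234 RPKM in control roots, with 67 of them higher with EBL and 8 lower. A list of 364 leaf-typical gene models, chosen by the same rule for leaves, had 1.42 RPKM in EBL roots and 3.37 RPKM in control roots, with 62 higher and 300 lower. Both lists were picked for root values far below those of their own organ, and no share was taken for gene models of like root level. Of the 80, 6 were listed at 0 in EBL roots and 10 in control roots, whereas the share of 58.8% leaves out such values. The part of the shifts of both lists in the root values of the 6 genes was not tested. Relative to shoots of the same treatment, unbranched2 stood at 72.0% in EBL roots and 55.2% in control roots. unbranched3 stood at 48.1% in EBL roots and 31.5% in control roots, and tasselsheath4 at 52.4% in EBL roots and 39.1% in control roots.

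Side by side, the EBL effect was larger in leaves than in shoots for each of the 5 genes compared, where it was for 45.9% of the gene models; the difference could not be tested. For unbranched2 the effect was 0.98 in leaves and -0.03 in shoots, 1.01 apart (log2), where 4.58% of the gene models differed by at least 1 in this direction. The difference was 0.70 for unbranched3, 0.54 for glossy15, 0.49 for tasselsheath4 and 0.32 for liguleless1. Leaves also exceeded roots for the 4 genes compared, by 0.87 for glossy15, 0.70 for unbranched2, 0.25 for unbranched3 and 0.24 for tasselsheath4. All were short of the size of 1 that 6.21% of the gene models reached. The share of gene models with a larger effect in leaves than in roots at any size was not computed, so the count of 4 has no background.

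The one test that these values allow runs over the 3 organs. tasselsheath4 and glossy15 stood higher with EBL in 3 of 3 organs, as did 21.2% of the gene models compared in each organ. For glossy15 the root value was near 0 in both treatments, at 0.153 RPKM with EBL and 0.132 RPKM in the control. Its effect there was 0.028, below the median of 0.047 over gene models. The mean effect was 0.43 (log2) for glossy15 and 0.35 for tasselsheath4, each with p = 0.25 in an exact two-sided permutation test that flips the sign of each organ's effect, the smallest p that 3 organs allow. unbranched2 and unbranched3 were higher in roots and leaves and lower in shoots (exact permutation p = 0.5 for each), liguleless1 gave p = 0.75 and tga1 p = 1 in the same exact test. None can pass a threshold of 0.05 in this design.

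The other genes of the pathway that the table names are the miRNA genes of both families, and these values come from polyadenylated RNA over short loci, which tells of the longer precursor transcripts and not of the mature miRNAs. The 4 MIR172 genes in the table (MIR172b to MIR172e) were listed at 0 in each group, so nothing can be said of the regulator of glossy15. Of 11 MIR156 genes, 8 reached 5 RPKM in at least 1 group, MIR156h was listed at 0 throughout, and MIR156b and MIR156l stayed at 0.542 RPKM or less. Loci this similar and this short can share reads, and a listing at 0 may be a failed estimate.

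MIR156d stood at 54.9 RPKM in EBL leaves and 59.2 RPKM in control leaves, 21.3 RPKM in EBL shoots and 23.3 RPKM in control shoots, and 7.90 RPKM in EBL roots and 3.42 RPKM in control roots. Leaves were highest and roots lowest, with no overlap. MIR156e stood at 33.0 RPKM in EBL leaves and 55.9 RPKM in control leaves, and in shoots it was listed at 0 with EBL and stood at 11.8 RPKM in the control. MIR156j was at 24.9 RPKM in EBL leaves and 20.7 RPKM in control leaves and was listed at 0 in the other 4 groups.

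MIR156k and MIR156f departed from this. MIR156k had 52.4 RPKM in EBL leaves and 56.2 RPKM in control leaves, 26.6 RPKM in EBL shoots and 25.1 RPKM in control shoots, and 46.6 RPKM in EBL roots and 61.4 RPKM in control roots, so shoots were lowest. MIR156f was lowest in leaves, at 10.1 RPKM with EBL and 13.5 RPKM in the control, beside 22.4 RPKM in EBL shoots and 33.6 RPKM in control shoots. In all, 4 of the 8 genes (MIR156d, MIR156e, MIR156i and MIR156j) had both leaf values above all others. MIR156g, MIR156i and MIR156j reached 5 RPKM in leaves alone, so they entered the list through that organ. Among gene models 18.3% had both leaf values above all others. They are a different class of feature with a minimum of 1 RPKM, so the count cannot be set against that share.

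**Figure D5:**
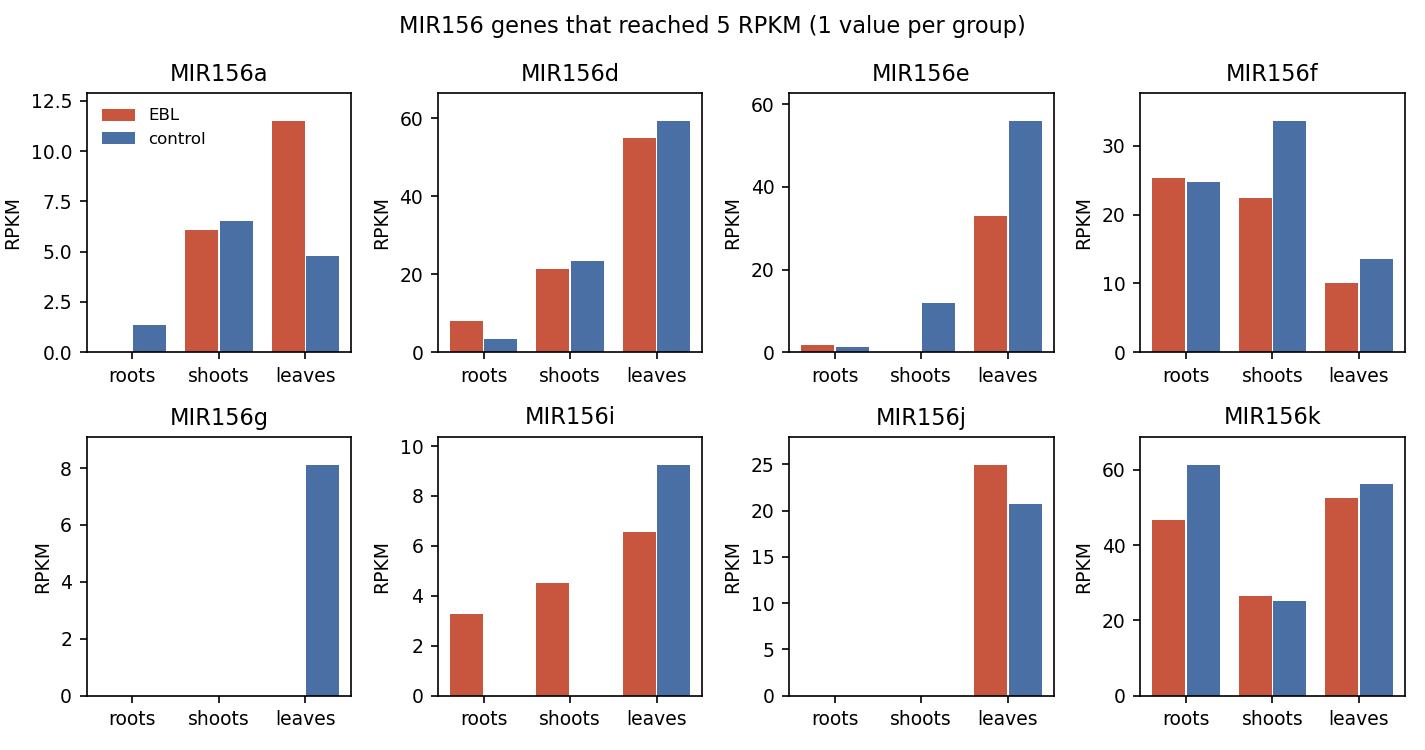
RPKM (vertical axis, from 0, a separate scale for each gene) of the 8 MIR156 genes that reached 5 RPKM, in roots, shoots and leaves, with EBL bars left of control bars and 1 value per bar. MIR156d, MIR156e, MIR156i and MIR156j are highest in leaves, MIR156k is lowest in shoots and MIR156f is lowest in leaves.

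Summed over the 11 MIR156 genes, the level was 193 RPKM in EBL leaves and 228 RPKM in control leaves, 80.8 RPKM in EBL shoots and 100.3 RPKM in control shoots, and 85.3 RPKM in EBL roots and 92.3 RPKM in control roots. Leaves, where unbranched2, unbranched3 and tasselsheath4 were lowest, thus had the highest sum. tga1, on which miR156 also acts, was lowest in roots instead, at 0.0964 RPKM with EBL and 0.0327 RPKM in the control. The MIR156 sums of roots and shoots overlapped. unbranched2, unbranched3 and tasselsheath4 together reached 9.45 RPKM in EBL roots and 7.15 RPKM in control roots, but 15.9 RPKM in EBL shoots and 16.5 RPKM in control shoots. A relation between MIR156 and these genes was not tested. The MIR156 sum was lower with EBL in each organ, at 0.849 times the control in leaves, 0.806 in shoots and 0.924 in roots. These ratios stayed below 1 under the 3 other scalings. In roots MIR156k decided the direction: without it the sum was 38.7 RPKM in EBL roots and 31.0 RPKM in control roots, a ratio of 1.25, and 3 of the 4 genes compared there stood higher with EBL. Without the genes listed at 0 in 1 of the 2 groups the ratio was 0.863 in shoots and 0.880 in leaves. These alternatives were added after seeing the data. Of single genes, MIR156a was 2-fold higher in EBL leaves, at 11.5 RPKM against 4.80 RPKM in control leaves, and MIR156d in EBL roots, at 7.90 RPKM against 3.42 RPKM in control roots; among the 8 no gene above 0 in both groups was 2-fold lower. MIR156g was at 8.12 RPKM in control leaves and listed at 0 in the other groups, EBL leaves included.

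Gene models with nearly the same level and profile over the 6 groups as unbranched2 or glossy15 were sought by the Euclidean distance of log2(RPKM + 1). Nearest to unbranched2 was Zm00001d027040 (distance 0.34), with 7.45 RPKM in EBL shoots and 7.49 RPKM in control shoots, 2.12 RPKM in EBL leaves and 0.745 RPKM in control leaves, and 4.46 RPKM in EBL roots and 3.97 RPKM in control roots. Zm00001d048185 came next (0.38), and 136 gene models lay within a distance of 1. Within that distance of glossy15 lay 9 gene models, with Zm00001d019855 (0.36) and Zm00001d003823 (0.49) nearest. The distance takes in level as well as profile, and the added 1 RPKM narrows differences among low genes. The counts of 136 and 9 therefore do not tell which profile is rarer. Zm00001d019855 stood at 15.2 RPKM in EBL shoots and 16.2 RPKM in control shoots, and at 8.22 RPKM in EBL leaves and 4.31 RPKM in control leaves. Among the 6 genes themselves the closest pair in level and profile was unbranched3 with tasselsheath4 (0.75); when each gene's mean was removed first, unbranched2 with unbranched3 was closest (0.60). glossy15 was farther than 2.6 from each SBP gene after that centring, nearest to liguleless1 (2.63).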

How the data were processed

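The authors deposited 1 table of RPKM values, with a single column for each of the 6 groups, per the file headers. The way replicates were combined, reads assigned and libraries normalised against each other is not stated in any source at hand. Libraries were stranded (TruSeq), from TRIzol-extracted, DNase-treated RNA, per the labels' protocols. CASAVA 1.8, Trimmomatic 0.33, TopHat2 2.0.13, Cufflinks 2.2.1 and the build B73 RefGen_v4 are named, without roles, per the submitters' processing notes.

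The genes, lists and rules were chosen with earlier results of these data known. Effects are log2 ratios after adding 1 RPKM, with 2-fold as the threshold, for features with at least 1 RPKM in 1 column and values above 0 in both columns; percentiles and background shares cover all gene models so compared. Named are the 6 genes, the MIR156 and MIR172 genes (values at 5 RPKM or more) and, for unbranched2 and glossy15, the 2 nearest gene models each. miRNA genes matched RefSeq (Zm-B73-REFERENCE-NAM-5.0) by name, 15 of 15, and gene models 0, so neither coordinates nor sequences are given. Alternatives were pseudocounts of 0.1 and 2, no minimum, a mean of at least 5 RPKM and 3 scalings. The 2-fold rule was tested on simulated columns, with changes planted only in gene models at 5 RPKM or more in the control column. That test does not cover the 6 genes in leaves or in roots, where each control value was below 5 RPKM. In shoots it does not cover tasselsheath4, liguleless1 and tga1, at 3.92, 1.97 and 0.384 RPKM in the control. Python 3.11.15, numpy 2.4.6, pandas 2.3.3 and matplotlib 3.10.9 were used.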

Additional observations from a re-analysis of the deposited data

How the results depend on the processing

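No paired analysis was possible because the table holds 1 value per group, with no column that carries a replicate number; for the same reason no replicate could be left out. All 18 EBL effects of the 6 genes, in 3 organs, kept their direction under the 3 scalings. The effect on liguleless1 in roots could not turn there, since its control value is 0. Another pseudocount cannot turn the direction of an effect, because the same amount is added to both values. The count of the 6 genes past 2-fold in EBL leaves was 0 as reported, 4 with a pseudocount of 0.1, and 1 (unbranched2) under median-ratio scaling (log2 change 1.17) and under quantile normalization (1.09); the cause was not tested. For control shoots over control leaves it was 5, and 3 under each of those scalings and 4 with a pseudocount of 2. For control shoots over control roots it was 2. It was 3 there with a pseudocount of 0.1, under quantile normalization, and when columns were divided by their gene model totals. For control leaves over control roots it was 3, with 4 at a pseudocount of 0.1 and 2 at a pseudocount of 2. With a mean of at least 5 RPKM, which leaves glossy15 alone, the counts were 1 for shoots over roots, 1 for shoots over leaves and 1 for leaves over roots. The mean EBL effect over the 3 organs turned from -0.015 to 0.046 for tga1 with a pseudocount of 0.1, and from 0.022 to -0.037 for liguleless1 when columns were divided by their gene model totals. That scaling put the leaf median over gene models at -0.23, and unbranched2 (0.77) and glossy15 (0.62) stayed above it.

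Background counts depended on the settings. A pseudocount of 0.1 gave 476 higher and 767 lower in EBL roots (155 and 415 as reported), 178 and 534 in EBL shoots (33 and 111), and 2042 and 623 in EBL leaves (1229 and 241). With a pseudocount of 2, 89 were higher in EBL roots, 16 higher and 63 lower in EBL shoots, and 141 lower in EBL leaves; with a mean of at least 5 RPKM, 79 were higher in EBL roots, 21 higher in EBL shoots and 145 lower in EBL leaves, and 2284 (3721 as reported) lower in control shoots than in control roots. For control shoots over control leaves 5095 were higher under quantile normalization (7738), and for control leaves over control roots 4906 under median-ratio scaling and 6158 under quantile normalization were lower (9456), with 5906 and 5345 higher (4030). Depth is unknown, so values under 1 RPKM may rest on few reads.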
